A study of Mus musculus with 26 samples.

Results

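The immunoglobulin heavy-chain V segments (Ighv genes) were taken from the gene table as the entries of biotype IG_V_gene whose name starts with Ighv and that reached 1 FPKM in at least 5 libraries. This rule kept 70 of 113 Ighv V-gene entries, out of 15672 genes that passed the same threshold and 56392 genes in the table. FPKM, fragments per kilobase of gene length scaled to a library size set by the authors, is a level per length and is the unit of every level given here. Of the 43 entries left out, 32 reached 1 FPKM in no library, and these include the 11 that had 0 reads in all 26 libraries. Just inside the threshold, Ighv6-7 and Ighv8-4 reached it in 5 libraries each, with highest values of 3.90 and 10.9 FPKM. Just outside, Ighv1-81, Ighv2-6-8 and Ighv3-4 reached it in 4 libraries each, with highest values of 2.61, 2.24 and 1.39 FPKM. Of the 70 members, 44 were at 1 FPKM or more in all 26 libraries.

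A heavy-chain variable exon is assembled in the developing B cell, when the Rag1 and Rag2 recombinase joins a V segment to a D and a J segment upstream of the constant genes. A mature B cell and its progeny transcribe a single productive V segment together with Ighm, Ighd or, after class switching, a downstream constant gene, and plasma cells hold far more of this mRNA than resting B cells. The mix of V segments in spleen RNA therefore sums over many clones, and a segment's level depends both on how many cells use it and on how much of it each cell transcribes. V segments fall into families by sequence, and the mouse families carry older names as well, among them J558 for Ighv1, Q52 for Ighv2 and S107 for Ighv7.

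The 26 spleen mRNA libraries came from female BALB/c mice aged 8 weeks, and the labels name no allele. Mice given ovalbumin (OVA, a model antigen from egg white) by intraperitoneal injection of 0.05 mg a day on days 1, 3 and 5 together with the miR-676-3P mimic, an RNA made to act as that microRNA and injected into the tail vein at 7 mg/kg on day 3, gave 5 libraries coded MM and 5 coded MN. Mice given OVA alone gave 6 libraries coded OS and 5 coded ON. Mice given normal saline by the same route gave 5 libraries coded CT. The labels give MM and MN the same treatment, and OS and ON the same treatment, without saying how the codes differ. They state 20 mice per group and leave unsaid if libraries come from different animals. The p-values measure the spread between libraries, which may be technical in part. In whole-spleen RNA, fewer cells of a type and less RNA per cell cannot be told apart.

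All 70 members lie on the minus strand of chromosome 12. In the table's coordinates the member nearest to Ighm starts 155.774 kb from it, and the members span 2421.96 kb. The reference genome carries the C57BL/6 form of this locus, and BALB/c mice carry another, so each value is the level of reads that the authors' counting gave to a reference segment. The last 300 bases of the coding sequences of 4 members are shown, taken from the GENCODE M21 transcripts (build GRCm38): Ighv2-9 and Ighv2-2 because they had the highest means, and Ighv3-6 and Ighv1-66 because both stood out in the library OS 5. Ighv2-9 (ENSMUSG00000096638) lies at chr12:113879096-113879541, Ighv2-2 (ENSMUSG00000096464) at chr12:113588267-113588702, Ighv3-6 (ENSMUSG00000076672) at chr12:114288152-114288582 and Ighv1-66 (ENSMUSG00000095519) at chr12:115593110-115593591. These coordinates are of the whole gene, leader exon and intron included, and each sequence runs 5′ to 3′ and stops at the end of the V exon. The Ighv2 pair differ at 34 of 350 aligned bases, and capitals mark the 27 of them within the stretch shown.
Ighv2-9: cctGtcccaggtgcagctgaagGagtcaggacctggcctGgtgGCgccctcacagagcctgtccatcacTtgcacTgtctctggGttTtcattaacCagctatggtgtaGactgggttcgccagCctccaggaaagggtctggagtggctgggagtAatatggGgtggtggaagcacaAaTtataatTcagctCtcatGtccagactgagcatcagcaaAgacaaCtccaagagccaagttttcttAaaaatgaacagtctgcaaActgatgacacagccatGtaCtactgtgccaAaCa
Ighv2-2: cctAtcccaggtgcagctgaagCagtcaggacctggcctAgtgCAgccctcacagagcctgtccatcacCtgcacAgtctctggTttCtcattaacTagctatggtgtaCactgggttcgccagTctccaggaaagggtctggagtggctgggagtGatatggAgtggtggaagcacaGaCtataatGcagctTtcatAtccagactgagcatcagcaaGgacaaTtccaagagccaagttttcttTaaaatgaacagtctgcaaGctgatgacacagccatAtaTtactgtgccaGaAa
In the other pair, capitals mark the run TACTGTGC, which holds the codon of the conserved second cysteine near the end of the V exon.
Ighv3-6: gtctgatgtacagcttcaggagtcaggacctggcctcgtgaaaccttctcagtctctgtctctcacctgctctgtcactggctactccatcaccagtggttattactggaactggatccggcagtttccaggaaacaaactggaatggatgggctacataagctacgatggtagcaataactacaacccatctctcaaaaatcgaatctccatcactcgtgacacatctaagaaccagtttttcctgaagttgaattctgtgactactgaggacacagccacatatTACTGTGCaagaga
Ighv1-66: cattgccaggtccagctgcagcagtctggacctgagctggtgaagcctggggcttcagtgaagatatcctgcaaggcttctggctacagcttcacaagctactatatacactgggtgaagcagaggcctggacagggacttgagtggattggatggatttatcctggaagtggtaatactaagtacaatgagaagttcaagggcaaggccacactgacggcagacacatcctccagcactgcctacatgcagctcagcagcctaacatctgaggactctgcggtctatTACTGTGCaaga
Searched on the coding strand, this run was found in 42 of the 70 members and in 67 of all 113 entries. Ighv2-9 and Ighv2-2 were 90.3% identical, whereas Ighv3-6 and Ighv1-66, of different families, were 56.3% identical. Over all members the median identity was 84.9% within a family (429 pairs) and 58.7% between families (1986 pairs). For 38 members another Ighv entry was at least 95% identical and for 6 at least 98%, so reads of such segments could be split between near copies and their separate levels are uncertain. Among the members named here this concerns Ighv11-2 (98.9% identical to Ighv11-1), Ighv1-20 (98.6% to Ighv1-37), Ighv1-15 (98.01% to Ighv1-23), Ighv2-2 and Ighv2-4 (97.7% to each other), Ighv14-2 (97.2% to Ighv14-1), Ighv1-18 (96.9% to Ighv1-26) and Ighv10-1 (96.7% to Ighv10-3). It also concerns Ighv1-53 (96.6% to Ighv1-62), Ighv8-11 (96.1% to Ighv8-8), Ighv1-74 (96.0% to Ighv1-69), Ighv1-66 (95.7% to Ighv1-84), Ighv8-12 (95.7% to Ighv8-13) and Ighv5-4 (95.5% to Ighv5-6).

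Depth was similar across libraries. The FPKM steps gave back whole reads for 100% of values, with 14224832 reads in MM 2 to 18113989 in ON 4, and 1 read on a segment of 350 bases was worth 0.149 to 0.257 FPKM. The library size behind the FPKM was 0.885 of the recovered reads in MM 2, 0.712 in ON 2 and 0.802 in CT 4, against 0.961 to 1.12 in the others, so FPKM in those 3 libraries are scaled up relative to their reads. Markers of the pancreas were uneven: 18 genes of the pancreas list took 13.3% of the MM 2 reads, 26.7% of the ON 2 reads and 3.99% of the ON 3 reads, against at most 0.00330% in every other library. Separately, mitochondrial genes, which are not markers of another tissue, took 6.62% of the reads in CT 4, against 1.26% to 2.39% in the other libraries. B-cell markers were present throughout, with Cd79a, a B-cell receptor signalling chain, at 108 FPKM (CT 4) to 478 FPKM (OS 2).

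Usage was uneven and led by the same few segments in most libraries. The Q52 segment Ighv2-9 had the highest mean, 184.6 ± 69.8 FPKM (SD, n = 26), and led 21 of 26 libraries. Its level was 86.6, 144, 106, 236 and 162 FPKM in MM and 205, 274, 270, 340 and 197 FPKM in MN. In OVA mice it was 72.3, 156 and 250 FPKM (lowest, median and highest) in OS and 208, 194, 208, 140 and 144 FPKM in ON, against 119, 286, 181, 89.5 and 271 FPKM in saline. Its lowest values were in OS 4, MM 1 and CT 4 and its highest in MN 4, and all pairs of codes overlapped, MM and MN only through MM 4.

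The next segments by mean were Ighv2-2 with 105.9 FPKM, Ighv7-3 with 92.0, Ighv3-6 with 91.3, Ighv6-6 with 84.3, Ighv10-1 with 75.2, Ighv7-1 with 73.0, Ighv1-9 with 65.2, Ighv2-6 with 49.7 and Ighv2-3 with 45.9 FPKM. Ighv7-1 is the segment of the T15 antibodies against phosphorylcholine known from BALB/c mice. Together these 10 segments made up 55.4% of the summed Ighv FPKM on average. Of the rest of the distribution, 24 members averaged 10 to 50 FPKM, 34 averaged 1 to 10 FPKM and 4 averaged under 1 FPKM. The segments Ighv11-2 and Ighv12-3, known for antibodies of B-1a cells that bind phosphatidylcholine, were chosen for mention with their values known. Ighv11-2 ranged from 3.01 FPKM in OS 4 to 63.2 FPKM in OS 1, and Ighv12-3 from 0 FPKM in CT 4 to 21.5 FPKM in MN 5.

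The other segments that led a library did so in few. Ighv3-6 led OS 5 with 17.7% and ON 5 with 11.1% of the summed Ighv FPKM. Ighv2-2 led ON 2 with 10.4% and CT 4 with 15.4%. Ighv6-6 led MM 5 with 9.60%.

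**Figure D1:**
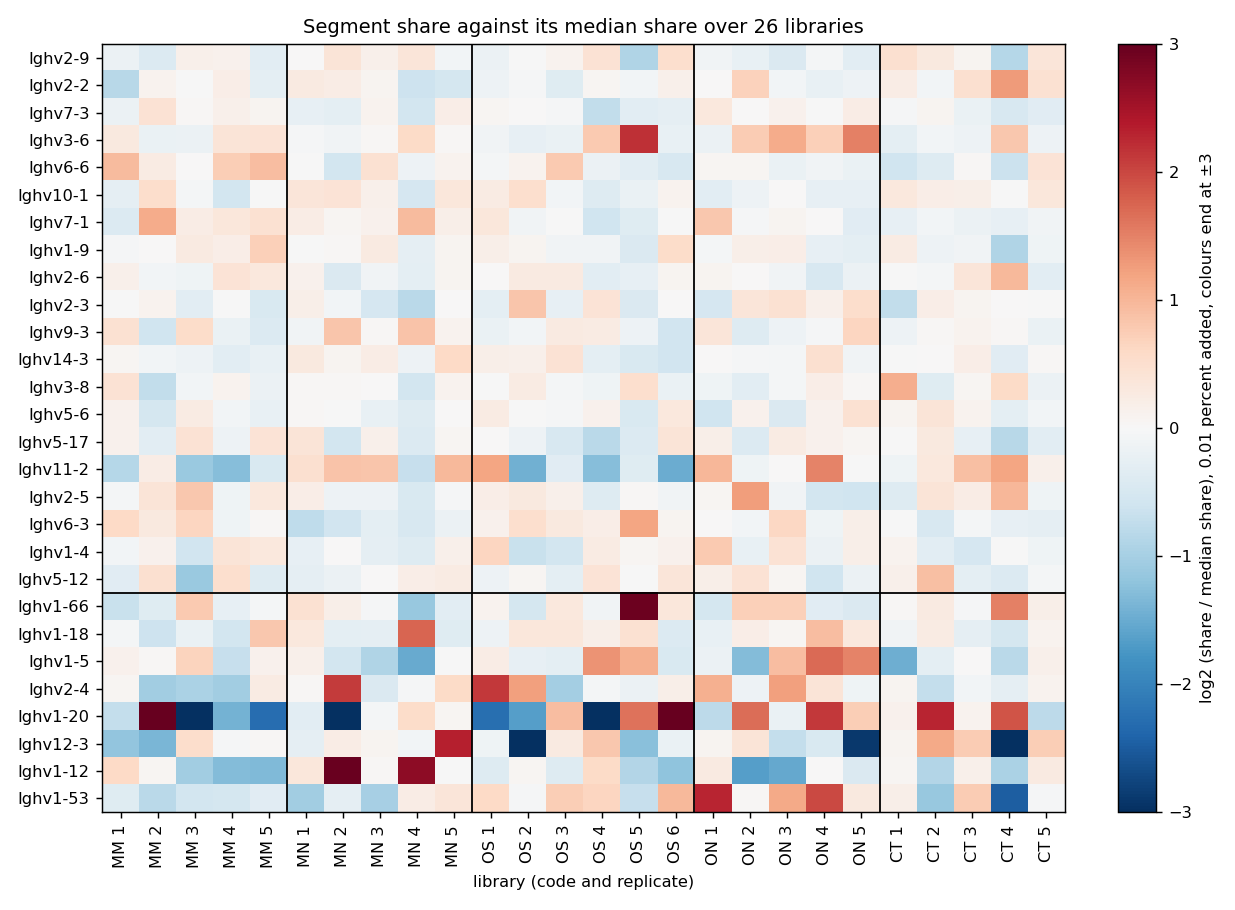
Colours give the log2 ratio of a segment's share of summed Ighv FPKM to its median share over the 26 libraries, for the 20 segments of highest mean (above the line) and the others among the 10 with the largest ratio of highest to median FPKM (below it), with libraries in columns. Most cells are pale, and single dark cells stand out, such as Ighv1-66 in OS 5 and Ighv1-12 in MN 2 and MN 4.

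By family, Ighv2 took the largest share with few members. Its 6 members made up 27.6% ± 3.80 (SD, n = 26) of the summed Ighv FPKM, while the 27 members of Ighv1, 38.6% of the list, made up 17.1% ± 1.56. Ighv7 (2 members) made up 10.4% ± 2.18, Ighv5 (8 members) 8.92% ± 1.199, Ighv3 (3 members) 8.41% ± 3.46 and Ighv6 (3 members) 7.31% ± 2.00. The remaining families each averaged about 5% or less. How far the C57BL/6 reference and the near copies change the share of a whole family, or of a part of the locus, was not tested.

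Across codes the family shares stayed close, with a few shifts that were not tested because they are scores over the chosen members. The Ighv2 share averaged 25.6% ± 2.98 in MM, 27.4% ± 2.84 in MN, 27.4% ± 4.78 in OS and 26.02% ± 3.53 in ON, against 31.6% ± 1.99 in saline (n = 6 for OS and 5 for the others). MM libraries ranged from 22.6% to 29.3% and saline libraries from 29.7% to 35.0%, so these ranges did not overlap, while those of the other codes overlapped the saline range. The Ighv6 share was highest in MM, at 9.93% ± 1.96, compared with 6.33% ± 1.42 in MN, 7.53% ± 1.86 in OS, 6.81% ± 0.327 in ON and 5.93% ± 1.47 in saline. Single libraries gave the extremes elsewhere: Ighv3 took 22.0% in OS 5, and Ighv7 took 17.1% in MM 2.

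**Figure D2:**
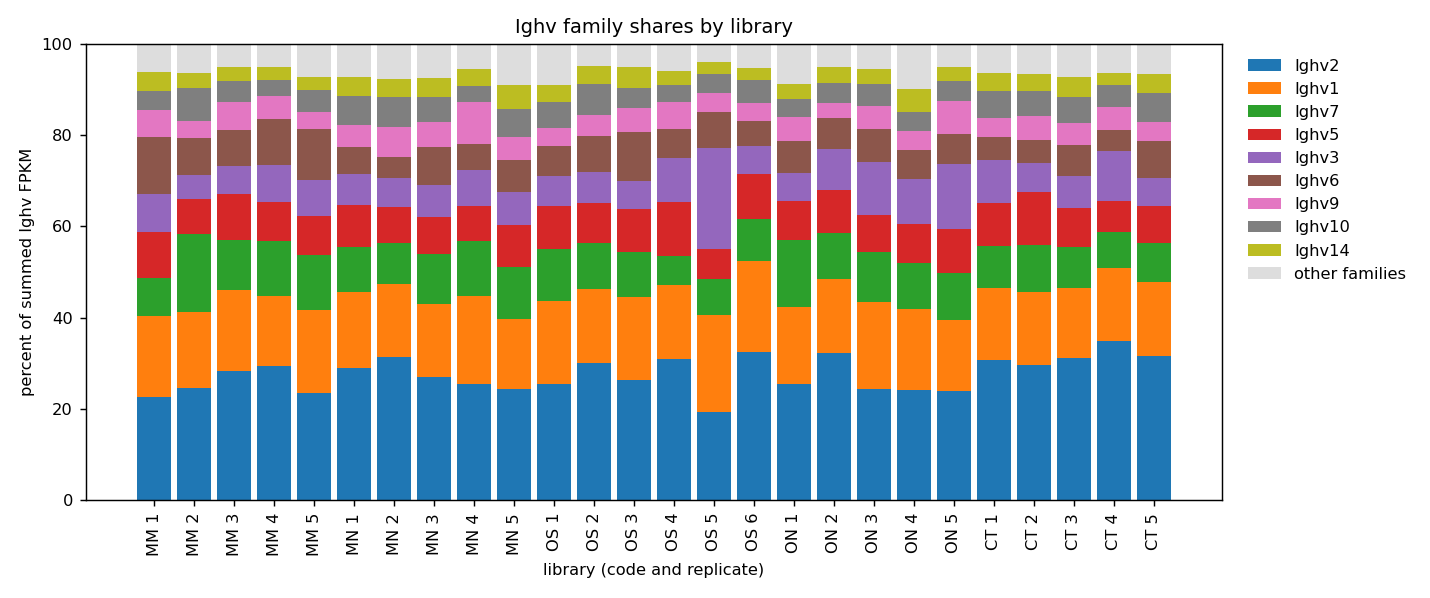
Stacked bars give each family's share of the summed Ighv FPKM in percent, 1 bar per library, for the 9 families with the largest mean share and the rest together. Ighv2 is the largest block in all libraries except OS 5, where the Ighv3 block is widened to 22.0%.

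Levels were higher nearer to the constant genes. With the members ordered by position, the nearest 23 segments made up 52.3% ± 4.28 (SD, n = 26) of the summed FPKM, the middle 23 made up 38.4% ± 3.85 and the farthest 24 made up 9.30% ± 1.43. The median of the segments' mean levels was 26.5 FPKM among the nearest 23, 9.78 among the middle 23 and 4.62 among the farthest 24. Ighv2, Ighv5 and Ighv7 members lie in the nearer part of the locus. Ighv1 members lie in the middle and farthest parts, in the farthest together with Ighv8 members, so family and position overlap in large part here. The nearest 23 made up 50.1% ± 2.63 in MM, 54.4% ± 1.95 in MN, 50.6% ± 6.86 in OS and 50.9% ± 3.34 in ON, against 55.7% ± 0.999 in saline. Saline libraries ranged from 54.3% to 56.6%, above all MM libraries (47.2% to 53.2%) and within the range of MN libraries (52.3% to 57.1%). In OS 5 the nearest 23 had their lowest share of all libraries, 37.1%, and the middle 23, which include Ighv3-6, their highest, 49.3%.

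**Figure D3:**
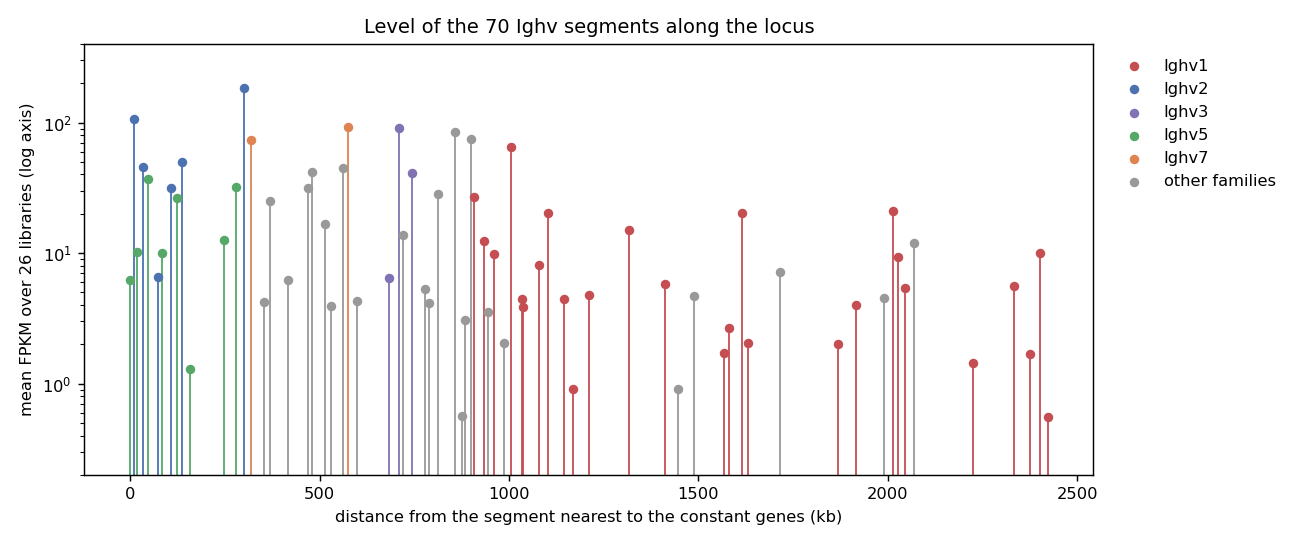
Each point is 1 of the 70 segments, with its mean FPKM over 26 libraries (log axis) against its distance in kb from the segment nearest to the constant genes, coloured by family. Segments over 50 FPKM all lie in the nearer part of the 2421.96 kb span, and the farther part holds Ighv1 segments with some of other families between them.

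The summed Ighv level varied far more between libraries than between codes. It was 818, 1586, 798, 1795 and 1688 FPKM in MM and 1688, 1731, 2032, 2205 and 1738 FPKM in MN. OVA mice had 448, 1236 and 3045 FPKM (lowest, median and highest) in OS and 1859, 1888, 2337, 1222 and 1490 FPKM in ON, against 710, 1935, 1418, 1357 and 1753 FPKM in saline. The means were 1337 ± 488 in MM, 1879 ± 228 in MN, 1426 ± 904 in OS, 1759 ± 425 in ON and 1435 ± 470 in saline (SD), and all codes overlapped in range, MM and MN only through MM 4 and MM 5. ON 2 had the highest ON sum after ON 3, but its Ighv share of all FPKM in the library was the lowest in ON, 0.282%, against 0.366% to 0.644% in the other ON libraries.

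The lowest and the highest sum came from the same code. OS 4 had 448 FPKM, with 68 of 70 segments below their own median and 31 at their lowest value of the 26 libraries, and OS 5 had 3045 FPKM, 6.80-fold more. After OS 4 the lowest sums were in CT 1, MM 3, MM 1, OS 2 and OS 3, at 710 to 1009 FPKM. Ighm, the constant gene of IgM, spanned only 1.88-fold, from 2606 FPKM in CT 3 to 4895 in ON 3, so the ratio of summed Ighv to Ighm ranged from 0.156 in OS 4 to 0.663 in MN 4. By code this ratio was 0.366 ± 0.146 in MM, 0.576 ± 0.0585 in MN, 0.375 ± 0.169 in OS, 0.456 ± 0.0483 in ON and 0.476 ± 0.130 in saline. Cd79a was at 385 FPKM in OS 4 and 108 FPKM in OS 5, opposite in order to the Ighv sums, and its part in the sums was not tested.

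The light-chain V segments (99 Igkv and Iglv genes chosen by the same threshold) shared part of this pattern. Their sum was also lowest in OS 4, at 3080 FPKM, and highest in MN 4, at 7910 FPKM, while OS 5, the highest library for Ighv, had 6260 FPKM and ranked 15 of 26 from the low end.

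**Figure D4:**
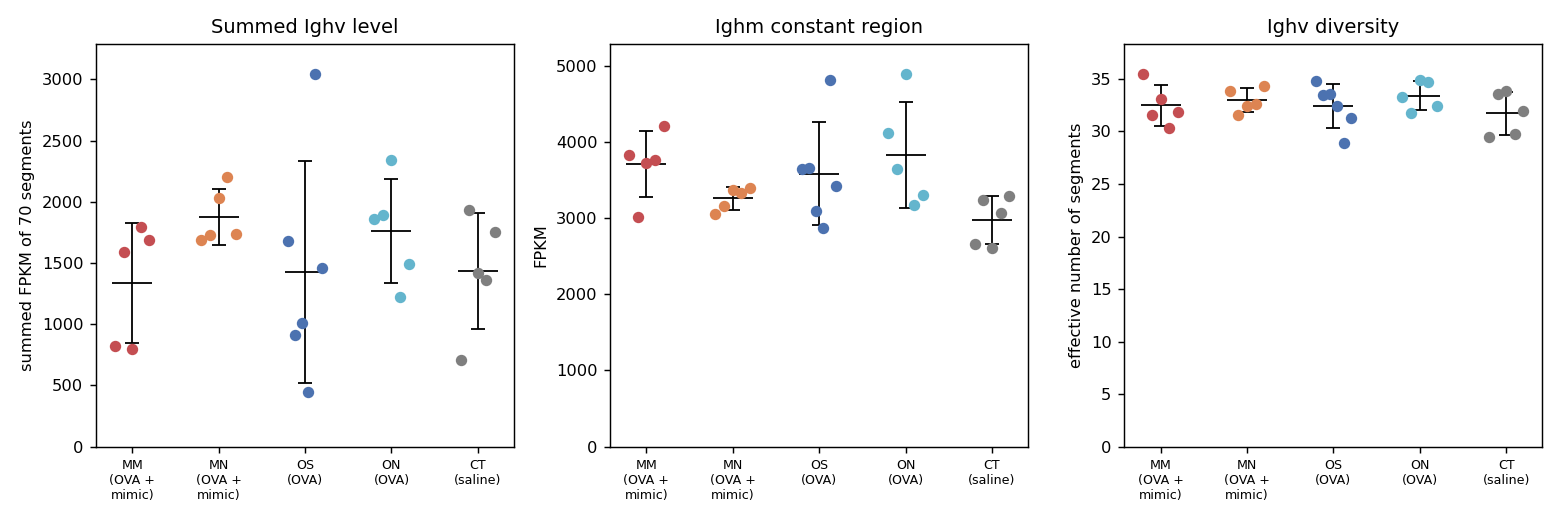
Points are libraries by code, bars are the mean and SD, and the panels give the summed FPKM of the 70 Ighv segments, the FPKM of Ighm and the effective number of Ighv segments. The OS libraries hold both the lowest sum (448 FPKM) and the highest (3045 FPKM), while the effective number stays between 28.9 and 35.5.

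Diversity overlapped between all codes. The effective number of segments, the exponential of the Shannon entropy of the shares, is the number of equally used segments that would give the same diversity. It averaged 32.5 ± 1.95 in MM, 33.0 ± 1.12 in MN, 32.4 ± 2.08 in OS and 33.4 ± 1.40 in ON, against 31.7 ± 2.05 in saline (SD), and all ranges overlapped. The lowest value was 28.9 in OS 5 and the highest 35.5 in MM 1. OS 4, with the lowest sum, had 32.4.

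Dominance, the share of the leading segment, ran from 8.88% in ON 3 to 17.7% in OS 5. It averaged 11.1% ± 1.97 in MM, 13.6% ± 1.98 in MN, 14.4% ± 2.92 in OS and 10.6% ± 1.05 in ON, against 15.0% ± 1.47 in saline. The ON libraries (8.88% to 11.5%) all lay below the saline libraries (12.8% to 16.8%), and the OS libraries (10.7% to 17.7%) overlapped them. The light-chain segments had a larger effective number, 41.6 in OS 4 to 57.003 in CT 4, but from a longer list (99 genes against 70), which allows larger values. Their leading segment was Iglv1 or Iglv2 in every library.

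Against this common profile, single segments stood out in single libraries. A value was counted as a peak when it was at least 10 FPKM and at least 5 times the segment's median over the 26 libraries, and 12 values met this. OS 5 had 3 of them. Ighv1-66 was at 198 FPKM there from 1345 reads, 16.2 times its median of 12.2 FPKM, and the next highest library, CT 4, had 32.7 FPKM. Ighv3-6 was at 539 FPKM in OS 5 from 3207 reads, 8.42 times its median of 64.05 FPKM, with 196 FPKM in ON 3 as the next highest. These 2 segments made up 6.51% and 17.7% of the Ighv sum in OS 5, against median shares of 0.842% and 3.89%. Measured by share in place of FPKM, Ighv1-66 stayed over 5 times its median (7.73 times), while Ighv3-6 was at 4.55 times.

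The third OS 5 peak was Ighv1-20, at 13.4 FPKM and 3.22 times its median share. Ighv1-20 was the most variable in this sense, with peaks also in MM 2 (19.0 FPKM), OS 6 (17.4 FPKM) and CT 2 (13.6 FPKM). It had 0 reads in MM 3, MN 2 and OS 4, where 3 reads would be 0.524, 0.559 and 0.566 FPKM. MN 4 had 2 peaks, Ighv1-12 at 26.1 FPKM and Ighv1-18 at 82.6 FPKM (3.39 times its median share), and Ighv1-12 peaked again in MN 2 at 25.0 FPKM. The remaining peaks were Ighv8-4 in MM 5 (10.9 FPKM from 64 reads, 28.8 times a median of 0.380 FPKM), Ighv12-3 in MN 5 (21.5 FPKM) and Ighv1-53 in ON 1 (12.7 FPKM). Peaks thus occurred in each code, in 9 of 26 libraries (1 peak in each of the same 9 when counted by share), and 43 of the 70 members never exceeded 3 times their median.

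Of the class-switched constant genes, 4 had their highest level in OS 5 or MN 4 and 2, Ighe and Ighg2c, did not. Ighg3, the IgG3 constant gene, was highest in OS 5 at 230 FPKM, against a median of 48.8 FPKM over all libraries. Ighg1, Ighg2b and Igha, the constant genes of IgG1, IgG2b and IgA, were all highest in MN 4, at 166, 94.7 and 231 FPKM, against medians of 33.8, 32.2 and 103 FPKM. Ighe, the constant gene of IgE, was highest in MM 1 at 3.28 FPKM, a library with 0 peaks. Which V segment was joined to which constant gene cannot be read from gene-level values. Ighg2c had 15.3 FPKM in CT 3 to 121 FPKM in OS 6. Ighg2a, which BALB/c mice carry in its place, was sought by that name without a match, so it was not analysed here.

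The 5 comparisons the design implies were tested on log2(FPKM + 1) with limma, fitted to all 15672 genes and adjusted by the Benjamini-Hochberg method, with 1 mean per code and a two-sided threshold of 0.05. Differences are on this scale, which understates changes of low genes. None of the 70 segments passed in any comparison, nor did any by limma voom on the recovered reads. The comparisons with saline share the saline libraries, and those with OVA share the OVA libraries.

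**Figure D5:**
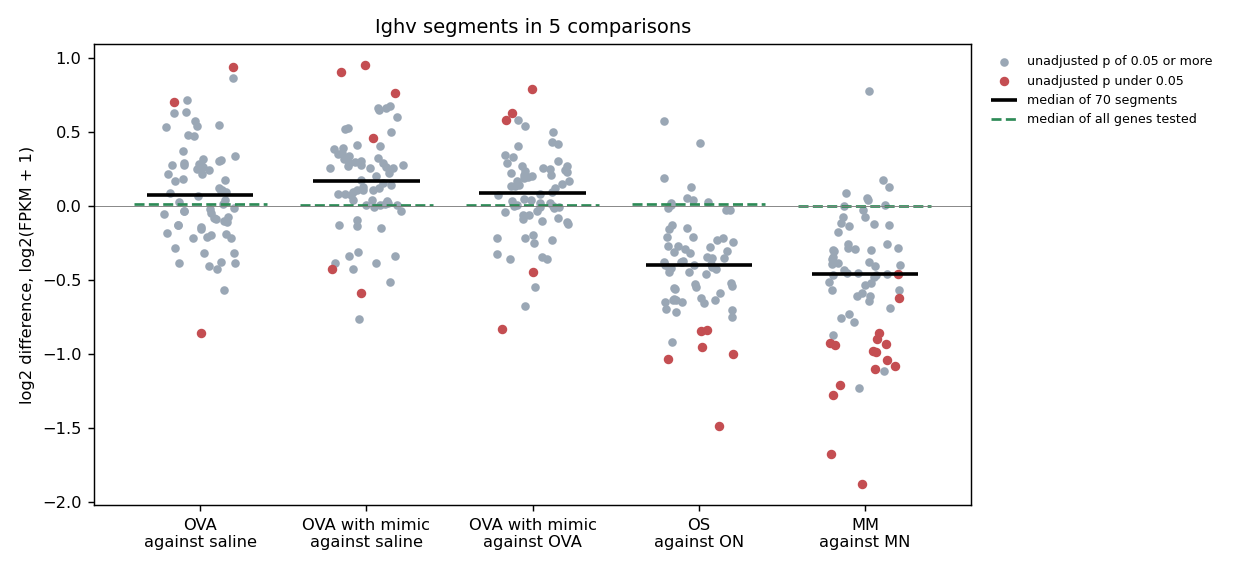
Points are the 70 segments' log2 differences in the 5 comparisons, red where the unadjusted limma p was under 0.05, with the median of the segments (black) and of all genes tested (green, dashed). The medians lie near 0 for the treatment comparisons and at -0.40 and -0.46 for OS against ON and MM against MN.

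For OVA with mimic against saline, the segments' median difference was 0.16, beside 0.01 over all genes, and 54 of 70 were above 0. None passed, as with all genes tested (0 of 15672, 0%), while 6 had an unadjusted p under 0.05, a share of 8.57% beside 6.72% of all genes. Of these 6, 4 were higher and 2 lower with mimic, beside 3.08% and 3.64% of all genes. The smallest adjusted p, 0.732, was shared by several segments. Ighv8-12 had 4.44, 13.4 and 26.6 FPKM (lowest, median and highest) in mice given OVA with mimic, against 8.52, 6.83, 3.81, 4.38 and 8.42 FPKM in saline, a difference of 0.95 ± 0.36 (SE, limma adjusted p = 0.732). Of the 10 libraries with mimic, 9 lay above the saline mean and the ranges overlapped. Ighv13-2 differed by 0.90 ± 0.32 and Ighv5-4 by 0.76 ± 0.30, with the same adjusted p. The segments' median rested on the saline libraries, being -0.02 without CT 1, 0.35 without CT 2 and 0.27 without CT 5, and it was 0.11 without MN 4.

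For OVA against saline, the median was 0.07, beside 0.01 over all genes, and 39 of 70 segments were above 0. None passed, where 340 of 15672 genes (2.17%) did by limma (152 to 218 without CT 1, CT 2, CT 3 or CT 5, 225 without ON 1 and 215 without ON 2), and 3 segments (4.29%) had an unadjusted p under 0.05, beside 16.3% of all genes. Of these, 2 were higher and 1 lower with OVA, beside 7.63% and 8.67% of all genes. Ighv1-74, of the J558 family, came nearest to the threshold. It had 0.148, 1.13 and 1.69 FPKM (lowest, median and highest) in OVA mice, against 0.710, 1.74, 3.242, 2.98 and 4.67 FPKM in saline. These levels rest on few reads, 1 to 10 in the OVA libraries and 4, 10, 20, 14 and 25 in saline. All 11 OVA libraries lay below the saline mean, with only CT 1 inside their range and CT 2 just above it, and the difference was -0.86 ± 0.24 (SE, limma adjusted p = 0.0543). Without OS 2, OS 6 or CT 1 it passed, at limma adjusted p = 0.0435, 0.0459 and 0.0202. Ighv1-53 differed by 0.94 ± 0.31 (limma adjusted p = 0.107) and Ighv6-7, at under 1 FPKM in most libraries, by 0.70 ± 0.25 (limma adjusted p = 0.141). Ighv6-7 reached 1 FPKM only in MM 3, OS 5, ON 3, ON 4 and ON 5, so it became a member mostly through OVA libraries. The sign of the segments' median was not stable: it was -0.14 without CT 1 and -0.00 without OS 5, and between 0.02 and 0.25 without any other single library.

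For OVA with mimic against OVA, the median was 0.09, beside 0.00 over all genes, and 44 of 70 segments were above 0. None passed, as with all genes (0 of 15672, 0%), and 5 (7.14%) had an unadjusted p under 0.05, beside 10.1% of all genes. Of these, 3 were higher and 2 lower with mimic, beside 5.4% and 4.74% of all genes. Ighv1-53 had 0.697, 1.42 and 3.41 FPKM (lowest, median and highest) with mimic, against 0.941, 2.56 and 12.7 FPKM with OVA alone, a difference of -0.83 ± 0.25 (SE, limma adjusted p = 0.263). No library with mimic exceeded the OVA mean, although the ranges overlapped. That mean was raised by ON 1, ON 3 and ON 4, at 12.7, 7.07 and 6.67 FPKM. All OS libraries (0.941 to 3.94 FPKM), ON 2 (2.56 FPKM) and ON 5 (2.43 FPKM) lay below it as well. Ighv1-12 differed by 0.79 ± 0.31 (limma adjusted p = 0.395), with its values over 20 FPKM in MN 2 and MN 4. The segments' median was -0.03 without OS 4 and between 0.03 and 0.19 without any other single library.

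For MM against MN, which carry the same treatment label, the segments' levels were mostly lower in MM. The median difference was -0.46, beside -0.00 over all genes, and 7 of 70 segments were above 0, yet none passed, where 27 of 15672 genes (0.172%) did. That count was 123 with only the compared libraries in the fit, and 1 to 16 without any single library other than MM 2 or MM 3. With an unadjusted limma p under 0.05 there were 16 segments (22.9%), all lower in MM, beside 7.25% of all genes in either direction, 3.27% higher and 3.99% lower. Segments can be low together in a library, so these 16 are not independent results. In MM 1 and MM 3, 60 and 64 of the 70 segments were below their own median. Without either of these libraries the segments' median was -0.32, and without any other single library it was between -0.38 and -0.58. Ighv1-12 had 2.22, 2.88, 0.634, 1.16 and 1.09 FPKM in MM, against 3.75, 25.0, 3.67, 26.1 and 3.02 FPKM in MN. The 2 codes did not overlap, MN 2 and MN 4 were far above the other MN libraries, and the difference was -1.88 ± 0.44 (SE, limma adjusted p = 0.0857).

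Ighv5-15 had 7.91, 9.68, 4.404, 9.48 and 7.15 FPKM in MM, against 17.2, 18.8, 14.03, 11.9 and 15.5 FPKM in MN, again without overlap (-0.94 ± 0.23, limma adjusted p = 0.106). Ighv1-15 had 2.60, 5.88, 6.10, 6.55 and 5.47 FPKM in MM, against 7.60, 16.9, 11.6, 12.4 and 14.1 FPKM in MN (-1.10 ± 0.30, limma adjusted p = 0.173). The J606 family went the other way in sign: its 3 members differed by 0.04 to 0.17, beside a median of -0.38 for the 27 Ighv1 members. Beside this, the 10 genes of the B-cell list had a median difference of 0.00, with 0 at an unadjusted limma p under 0.05. The 99 light-chain V segments were mostly lower in MM as well, with a median of -0.31 and 13 above 0. At an unadjusted limma p under 0.05 there were 18 of them (18.2%), all lower in MM, beside 3.99% of all genes lower. Ighm was 3827, 3017, 3725, 3759 and 4213 FPKM in MM and 3055, 3155, 3369, 3325 and 3392 FPKM in MN.

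In OS against ON, which also share a treatment label, most segments were lower in OS without passing. The median was -0.40, beside 0.01 over all genes, 9 of 70 segments were above 0, and none passed, where 29 of 15672 genes (0.185%) did. That count was 0 with only the compared libraries in the fit, 260 without OS 5, 216 without ON 2, 47 without OS 1 and 3 to 5 without any other single library except OS 6. The 6 segments (8.57%) with an unadjusted limma p under 0.05 were all lower in OS, beside 10.6% of all genes in either direction, 5.74% higher and 4.84% lower. Ighv6-7 had 0, 0.177 and 1.15 FPKM (lowest, median and highest) in OS, against 0.857, 0.252, 3.90, 2.33 and 1.70 FPKM in ON, a difference of -1.03 ± 0.28 (SE, limma adjusted p = 0.119) from at most 23 reads in a library. The ranges overlapped through OS 5 and ON 1 and ON 2, and without ON 2 or OS 5 the difference passed, at limma adjusted p = 0.0116 and 0.0252. Ighv6-7 met the threshold mostly through ON 3, ON 4 and ON 5, so this difference is not independent of the rule that made it a member.

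Ighv3-6, the OS 5 peak, had 29.8, 41.2 and 539 FPKM in OS, against 64.3, 125, 196, 78.1 and 166 FPKM in ON (-0.92 ± 0.55, limma adjusted p = 0.579). Every OS library except OS 5 lay below all ON libraries, and without OS 5 the difference was -1.54 and passed (limma adjusted p = 0.0341). The segments' median was -0.61 without OS 5, with 21 segments at an unadjusted limma p under 0.05, and -0.19 without OS 4, with 5.

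The lists set beside the segments gave few calls. Of 13 plasma-cell genes, 3 rose in OVA against saline, beside 2.17% of all genes (123 higher and 217 lower), namely Prdm1 (0.57 ± 0.11, limma adjusted p = 0.00890), Irf4 (0.57 ± 0.12, 0.0126) and Edem1 (0.49 ± 0.11, 0.0167), of which the first and second encode transcription factors of plasma-cell differentiation and the third a factor of protein degradation in the endoplasmic reticulum. With 1 mean per treatment Prdm1 and Irf4 did not pass (limma adjusted p = 0.0899 and 0.0861), nor did Irf4 (0.0511) and Edem1 (0.0744) with only the compared libraries, Irf4 without CT 1 (0.0566) or Edem1 without ON 2, ON 3 and MM 2 (0.0546). In OS against ON, 4 of the 13 plasma-cell genes were above 0, and the list's median was -0.09. At an unadjusted limma p under 0.05, 2 were higher and 1 was lower. The 2 higher genes, Irf4 and Prdm1, passed (0.76 ± 0.13 and 0.67 ± 0.13, limma adjusted p = 0.0202 and 0.0303), beside 0.185% of all genes called. Both calls were lost with only the compared libraries in the fit (limma adjusted p = 0.235 for each), Irf4 also without 6 of 11 single libraries (OS 2, OS 3, OS 4, ON 3, ON 4 or ON 5, at most 0.118) and Prdm1 without 7 (the same and ON 1, at most 0.151). The comparison of OVA with saline averages OS and ON, so the fitted rise of Irf4 and Prdm1 there was larger in OS than in ON. None of the 8 heavy-chain constant genes passed in any comparison. Nor did any of the 10 B-cell genes, the 10 class-switch and germinal-centre genes, the 5 genes of V(D)J recombination and the surrogate light chain that were tested, or the 10 T-cell genes. Of the 99 light-chain V segments, 1 passed, Igkv6-29, lower in OVA than in saline and named with its value known, beside 2.17% of all genes. Their median in that comparison was -0.24, with 24 of 99 above 0, where the Ighv median was 0.07, and 1 was higher and 13 were lower at an unadjusted limma p under 0.05, beside 7.63% and 8.67% of all genes. For OVA with mimic against OVA their median was 0.30, with 91 above 0. At the same p, 25 were higher and 0 lower, beside 5.4% and 4.74% of all genes. For OS against ON the median was -0.31, with 16 above 0. There 0 were higher and 9 lower, beside 5.74% and 4.84% of all genes. For OVA with mimic against saline it was 0.08, with 64 above 0. The pancreas list, with 3 genes tested, had a median of -4.64 in OS against ON and 2.01 in MM against MN, and its part in the Ighv differences was not tested. Without ON 2, ON 3 and MM 2, which held the pancreatic reads, the Ighv medians of the same 2 comparisons were -0.24 and -0.52.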

How the data were processed

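Spleen mRNA libraries, 26 in all, were measured by RNA sequencing, and the deposited FPKM values per gene were used as the authors made them. The submitters' processing notes list, without roles or order, edgeR 3.24.3, featureCounts 1.5.0-p3, HISAT2 2.0.5, CASAVA, DESeq2 1.20.0 and StringTie 1.3.3b. The table's genome build was not given in the sources used here. All 113 Ighv entries matched a GENCODE M21 gene, at a single offset of 36380 bases from the GRCm38 start. Groups follow the codes in the labels. Reads were recovered from the FPKM steps (tolerance 0.05), and counting error is the only error that read limits cover.

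Genes at 1 FPKM or more in at least 5 libraries were fitted with limma 3.58.1 (R 4.3.3) on log2(FPKM + 1) with a variance trend, all 26 libraries in the fit, and the procedure was tested on simulated data. Alternatives were a pseudocount of 0.1, no filter, only the compared libraries, 1 mean per treatment, the replicate number as a block, voom with TMM scaling (a trimmed mean of log ratios) of the recovered reads, library weights, and libraries left out. A share is a segment's FPKM over the sum of the 70. Identity was counted over the shorter coding sequence after pairwise alignment with Biopython 1.88.

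The members and lists were chosen with earlier results of these data known. Segments named are the 10 of highest mean, those leading a library, the 10 with the largest ratio of highest to median FPKM (median of at least 1), and the 3 with the smallest p in each comparison. Others named are said to be chosen with their values known, apart from entries beside the threshold, peaks, members of a pair of near copies and segments that an alternative called.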

Additional observations from a re-analysis of the deposited data

Results flagged for a closer look

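In 31 measures, each examined in the 5 codes, 23 of 155 groups held a library separated from the rest of its code by most of the code's range. Chance gives about 1 in 20 for measures chosen without regard to their values, whereas 10 of the segments examined were chosen for the largest ratio of highest to median FPKM in these libraries, so the count cannot be read against that rate. OS 5 accounted for 6 of the 23 and MN 4 for 3.

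In OS 5, Ighv3-6 was at 539 FPKM, against 29.8 to 60.6 FPKM in the other OS libraries. Ighv1-66 was at 198 FPKM there, against 3.48 to 15.5. Ighv6-3 was at 116 FPKM, against 8.54 to 30.9, and Ighv1-18 at 46.6 FPKM, against 5.65 to 16.7. Ighv1-5 was at 44.7 FPKM, against 5.32 to 13.6, and Ighv6-7 at 1.15 FPKM, against 0 to 0.185. All 6 segments were thus high in the library with the highest Ighv sum.

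In MN 4, Ighv1-18 was at 82.6 FPKM, against 14.9 to 23.3 FPKM in the other MN libraries, and Ighv7-1 at 176 FPKM, against 73.3 to 90.7. Ighv10-1 was low there, at 72.004 FPKM, against 101 to 108. Also in MN, Ighv2-4 was high in MN 2 at 23.1 FPKM and Ighv2-6 low in it at 39.9 FPKM, Ighv1-9 was high in MN 3 at 100.5 FPKM, and Ighv12-3 was high in MN 5 at 21.5 FPKM.

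In MM, Ighv1-18 was at 32.8 FPKM and Ighv2-4 at 6.18 FPKM in MM 5, Ighv1-20 at 19.0 FPKM in MM 2 and Ighv8-11 at 5.96 FPKM in MM 4, each above the other MM libraries, while Ighv1-15 was low in MM 1 at 2.60 FPKM. In OS, Ighv2-4 was at 22.8 FPKM and Ighv8-11 at 6.59 FPKM in OS 1, and Ighv13-2 at 6.79 FPKM in OS 6. In saline, CT 2 held Ighv13-2 at 10.9 FPKM and Ighv6-7 at 0.514 FPKM, the last from 3 reads against 0 FPKM in the other saline libraries.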

How the results depend on the processing

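With library weights, limma called 3 of the 70 segments for OVA against saline (Ighv14-2, Ighv12-3 and Ighv1-74, all lower), 1 for OS against ON (Ighv6-7) and 4 for MM against MN (Ighv1-12, Ighv5-15, Ighv1-15 and Ighv14-2, all lower in MM), and called 1435, 564 and 474 of all genes in place of 340, 29 and 27. All genes called for OVA against saline were also 87 with 1 mean per treatment, 108 without ON 2, ON 3 and MM 2, 117 with only the compared libraries and 150 with no filter. For OS against ON they were 123, 0 and 6 under the last 3 of these and 17 with a pseudocount of 0.1, and for MM against MN 123 with only the compared libraries and 7 with no filter. Library weights also gave segment medians of -0.25 for OVA against saline and -0.03 for OVA with mimic against saline. With only the compared libraries in the fit, 1 segment was called for MM against MN (Ighv5-15, limma adjusted p = 0.0474). Leaving out single libraries gave 0 to 1 called for OVA against saline (1 without OS 2, OS 6 or CT 1), 0 to 2 for OS against ON (2 without OS 5 and 1 without ON 2) and 0 for the other comparisons. All other alternatives called 0 segments. The inverse Simpson index gave effective numbers of 21.8 in MM, 21.2 in MN, 20.6 in OS, 22.9 in ON and 19.7 in saline. Peaks numbered 32 at 3 times the median, 4 at 10 times, and 9 at 5 times the median share (1 in OS 5 in place of 3, and 1 in MN 4 in place of 2), an alternative chosen after seeing the data.

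Of 50 same-numbered pairs of libraries, 9 correlated over 0.1 (median -0.04). Differently numbered pairs were not measured beside them, so these values cannot decide if the replicate numbers pair the libraries. The replicate block called 0 segments in each comparison and neither Irf4 nor Prdm1 for OS against ON (limma adjusted p = 0.0505 and 0.0574). It called 184 genes in place of 340 for OVA against saline and 3 in place of 29 for OS against ON. The cause of these changes was not tested. Depth limits the low members: 1 read on 350 bases is 0.149 to 0.257 FPKM.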
